A study of Homo sapiens with 11 samples.

Results

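Rescue-only CTCF sites were the summits of the CTCF list of ORC2 rescue cells that had no ORC2 deletion summit and no WT summit within 500 bp. They numbered 1739 of the 20810 rescue summits, which is 8.36% (95% Wilson interval 7.99 to 8.74), and the 3 CTCF lists held 70966 summits in all. The sites were thus chosen by their presence in 1 list and their absence from the others, and neither is a finding. All cells were HCT116 p53-/-, a human colorectal cancer line without p53, and CTCF was mapped by CUT&RUN, in which an antibody guides a DNA-cutting enzyme to a protein in the nucleus. The ORC2 rescue cells, per the labels' protocols, carried ORC2 with its untranslated regions on the plasmid pLHCXORC2 and were selected as clones. The ORC2 deletion cells were the CRISPR/Cas9 clone ORC2B2, and the WT cells were the p53-/- parent line. Each genotype had 2 CTCF libraries, and IgG, an antibody without a target, was used in 1 rescue library, 2 deletion libraries and 2 WT libraries. Each CTCF list names no replicate, the depth is unknown, and there is thus no replicate error for any value below; intervals cover counting error over summits only, and neighbouring summits are not independent.

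CTCF is a zinc finger protein that reads a long DNA motif and halts cohesin as it extrudes chromatin loops, so that its sites often lie at loop anchors and domain borders. ORC2 is a subunit of the origin recognition complex, which marks where DNA replication can start and loads the replicative helicase. In epithelial cells CTCF sites are found both between genes and inside them, and many are shared between cell types. A summit is the base of highest signal in a peak, and its value here is a −log10 q from the peak calling, which ranks summits within 1 list and is not comparable between lists.

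Promoter sequences were at hand for some of the members, and a few are shown for their matches to the CTCF motif or lack of one. The stretches below come from RefSeq promoter windows (GRCh38.p14), run 5′ to 3′ in the direction of the gene, and lie upstream of its start; capitals mark a match to the CTCF consensus with at most 1 mismatch. CPNE4, a calcium-dependent membrane-binding protein, and CHCHD5, a mitochondrial protein, were members whose window held such a match. YEATS4, a reader of acetylated histones, and C5orf15 were among the highest-valued members in a promoter window and held none. CD8A, a T cell co-receptor, and LOC107984881 had a rescue summit shared with the other genotypes near an exact match, and were picked after their values were seen, as was CHCHD5. Stretches with a match are centred on it and the others on the summit, so that the CHCHD5 and CD8A stretches do not reach their summits.
CPNE4, rescue-only, chr3:132035036-132035116, minus strand: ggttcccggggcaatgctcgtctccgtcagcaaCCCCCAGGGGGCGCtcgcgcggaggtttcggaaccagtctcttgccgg
CHCHD5, rescue-only, chr2:112584392-112584472, plus strand: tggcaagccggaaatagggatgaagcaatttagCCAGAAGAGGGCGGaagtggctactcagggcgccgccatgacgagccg
YEATS4, rescue-only, chr12:69359493-69359563, plus strand: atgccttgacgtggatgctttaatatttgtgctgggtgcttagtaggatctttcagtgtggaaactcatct
C5orf15, rescue-only, chr5:133968749-133968829, minus strand: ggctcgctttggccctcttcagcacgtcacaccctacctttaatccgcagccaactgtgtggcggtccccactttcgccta
CD8A, shared, chr2:86808494-86808574, minus strand: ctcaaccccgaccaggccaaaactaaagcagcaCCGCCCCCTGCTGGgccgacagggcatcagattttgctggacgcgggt
LOC107984881, shared, chr16:66954227-66954307, minus strand: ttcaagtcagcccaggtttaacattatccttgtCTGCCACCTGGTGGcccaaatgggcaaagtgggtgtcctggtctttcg

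The CPNE4 summit had a value of 5.46 and lay 32 bp upstream of the gene start, and the middle of the motif lay 30 bp farther upstream. Its nearest deletion summit was 3205 bp away and its nearest WT summit 3292 bp. The CHCHD5 summit had a value of 3.43, with the motif 107 bp upstream of it, a deletion summit 1998 bp away and a WT summit 15695 bp away. At CD8A the rescue summit (10.2) lay 28 bp from a deletion summit and 13 bp from a WT summit, and at LOC107984881 (10.5) the distances were 4 and 2 bp. The middle of the motif lay 48 bp downstream of the summit at CD8A and 27 bp upstream of it at LOC107984881.

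Promoter windows, each reaching from 250 bases before to 50 bases after a gene start, held 67 rescue-only summits, 3.85% of them (3.05 to 4.86). The share was 3.41% of the other rescue summits, 5.30% of the deletion-only summits and 8.31% of the WT-only summits (7.04 to 9.78). The 67 summits fell into 77 windows of 70 genes. The CTCF consensus of 14 bases, sought on both strands with at most 1 mismatch, was in 3 of the 77 windows, which is 3.90% (1.33 to 10.8). The third of these was the window of UACA, where the summit had a value of 2.85 and the middle of the match lay 196 bp downstream of it. Among windows with another rescue summit 180 of 749 held it, 24% (21.1 to 27.2), and among those with a rescue summit of value under 5 the share was 16.5% (12.3 to 21.8). The share was 4.52% (3.13 to 6.50) of windows with a deletion-only summit, 9.82% (6.13 to 15.3) of windows with a WT-only summit and 2.77% of all 34789 windows. The interval of the rescue-only windows thus lay below that of the other rescue summits of value under 5 and held the share over all windows. The rescue-only windows were not limited by value, so these sets were not matched for it.

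An exact match was in 0 of the 77 rescue-only windows, which allows a share of up to 3.90% (3 counts of the total). It was in 44 of the 749 windows with another rescue summit, 5.87%. With up to 2 mismatches the shares were 23.4% of the rescue-only windows, 49.8% of the windows with another rescue summit and 17.1% of all windows. GC content was alike in the first pair, with a median of 63.7% in both sets of windows, against 58.7% over all windows. A match is a run of letters and not a measured binding site, and the 1672 members outside these windows could not be searched, because no genome sequence of this build was used here.

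**Figure D1:**
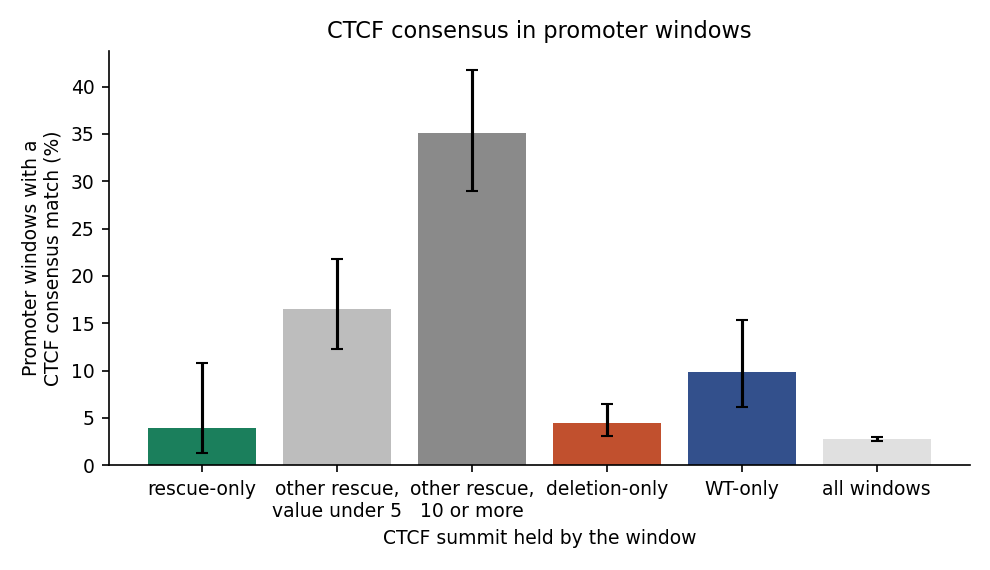
Share of RefSeq promoter windows that held a match to the CTCF consensus with at most 1 mismatch (%), by the kind of CTCF summit in the window; error bars are 95% Wilson intervals. Rescue-only windows stood at 3.90%, near the deletion-only windows (4.52%) and the 2.77% of all windows, and below the other rescue summits of value under 5 (16.5%).

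The highest-valued members in a promoter window were at YEATS4 (7.88), BRD7, a bromodomain subunit of a SWI/SNF chromatin remodeller (7.76), C5orf15 (7.29) and LOC124903862 (7.26). MAPK1IP1L followed with 6.78, SAC3D1, a centrosomal protein, with 6.25, and ITGA6-AS1, antisense to an integrin subunit, with 5.63. Next to CPNE4 came FPGS, which adds glutamates to folate, with 5.37, and DST, a cytoskeletal linker, with 5.22. The best match in the window differed from the consensus at 4 bases for YEATS4, 3 for BRD7 and 2 for MAPK1IP1L. For 9 of these 10 members, CPNE4 aside, no match with at most 1 mismatch was found.

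Rescue-only summits were mostly weak. The value decides which summits are called, so it is not independent of the rule, and the values below are a description only. Their median value was 3.18 (quartiles 2.34 and 4.42), against 7.03 (4.55 and 10.8) for the other rescue summits, and 93.2% of them lay below the median of the rescue list. A value of at least 5 was reached by 304 members and a value of at least 10 by 21. With the rescue list split by value into 10 classes of equal size, rescue-only summits made up 33.8% of the lowest class (31.8 to 35.8) and 0.192% of the highest (0.0748 to 0.493). The private summits of the other genotypes were weak within their own lists too. The median was 4.36 for deletion-only summits, with 88.3% below the median of that list, and 2.59 for WT-only summits, with 92.3% below it.

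**Figure D2:**
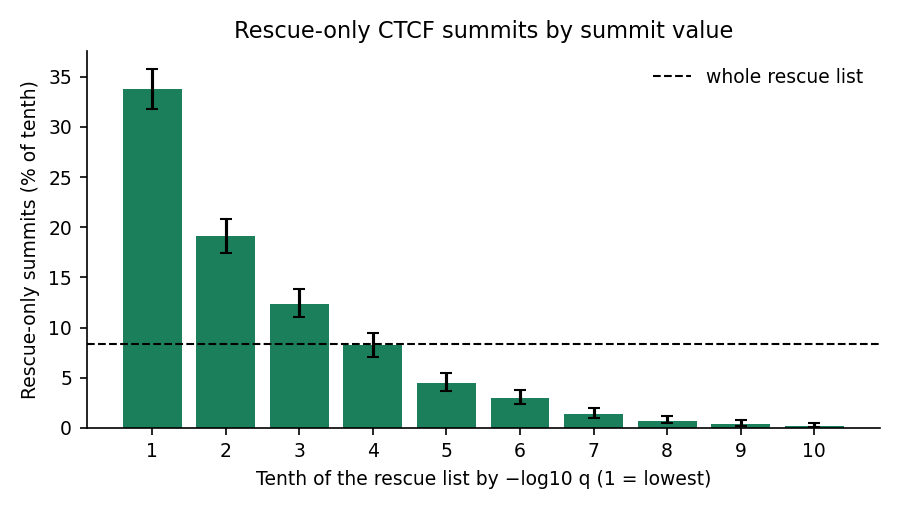
Rescue-only summits as a share of each of 10 equal classes of the rescue list (%), ordered from the lowest to the highest −log10 q; error bars are 95% Wilson intervals and the dashed line is the 8.36% of the whole list. The share is lower in each class than in the one before it, and runs between 33.8% and 0.192%. The value is not independent of the rule that chose the members.

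The share of a list that was private to it moved with the length of the lists. At full length the rescue-only share was 8.36% of 20810 summits, the deletion-only share 30.6% of 31112 and the WT-only share 8.21% of 19044 (7.83 to 8.61). With the 19044 highest-valued summits of each list these became 13.7% rescue-only, 12.6% deletion-only and 16.2% WT-only. The rescue-only share was thus below the deletion-only share at full length and above it at equal lengths.

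Most members lay far from any summit of the other genotypes. This distance is what the rule used, so its values are a description and not a finding. The median distance was 18412 bp to the nearest deletion summit and 33359 bp to the nearest WT summit. The nearer neighbour was a deletion summit for 1188 members, 68.3%; the deletion list was the longer one. No deletion or WT summit lay within 10 kb of 1118 members (64.3%), within 50 kb of 418 (24%) and within 100 kb of 174 (10.0%). At the other end, 107 members had such a summit between 500 and 1000 bp away. The 33 members just inside the limit, at 500 to 600 bp, had a median value of 4.53, and the 69 rescue summits just outside it, at 400 to 500 bp, one of 3.87. To the nearest other rescue summit the median distance was 30589 bp for members and 23296 bp for the other rescue summits.

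**Figure D3:**
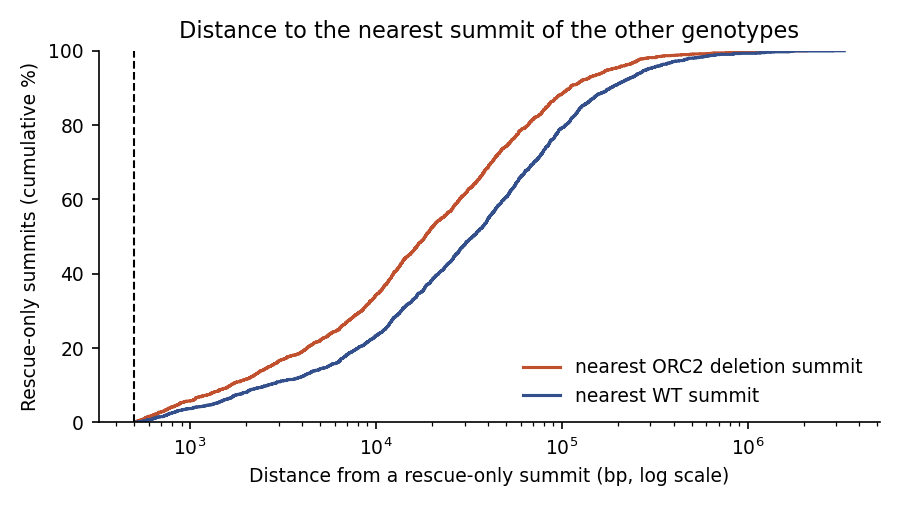
Cumulative share of the 1739 rescue-only summits (%) by distance to the nearest ORC2 deletion summit and to the nearest WT summit (bp, log scale); the dashed line marks the 500 bp of the rule. The deletion curve, with a median of 18412 bp, lies left of the WT curve, with a median of 33359 bp. Both distances are what the rule used.

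Of the 25 highest-valued members, 9 lay inside a protein-coding gene, 9 lay outside but within 50 kb of one and 7 had none within 50 kb. A deletion or WT summit lay within 1000 bp of 8 of them, 32.0%, against 6.15% of all members, and 10 lay farther than 10 kb from both. The member with the highest value, 51.6, was on chromosome 16 at 46387933. It had a deletion summit (value 208.9 in the deletion list) 2752 bp away and a WT summit (3.38 in the WT list) 2016 bp away. IgG summits of all 3 genotypes lay 2751 to 2757 bp from it, with values of 104, 382 and 127 in the rescue, deletion and WT IgG lists; their part in the result was not tested.

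The second was inside ORC2, the deleted and restored gene, which spans 200908977 to 200963660 on chromosome 2. This summit, at 200957000, had a value of 33.3. The nearest deletion CTCF summit, at 200956378 and 622 bp away, had a value of 16.5 and was itself deletion-only. A further deletion CTCF summit lay at 200957984 (24.2), near a rescue summit at 200957858 (18.4) that was not a member. The nearest WT summit was at 200963505, 6505 bp away. IgG summits lay 584 bp from it in rescue (value 11.1) and 635 bp from it in deletion (60.7), and the WT IgG list had none on that gene. The rescue plasmid carries ORC2 sequence, so fragments of the plasmid and of the gene itself cannot be told apart in a summit list. The deletion cells had CTCF and IgG summits in this stretch as well, and the cause was not tested. The table of genes gives no exons, so the summit's place within the gene is not known more finely.

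CDC37, a co-chaperone that hands kinases to HSP90, had a member 258 bp outside it (19.5), 521 bp from a deletion summit and 588 bp from a WT summit. CHMP6, a subunit of the ESCRT membrane-cutting machinery, had one 2826 bp outside it (16.8), with a deletion summit 4116 bp and a WT summit 34793 bp away. ISG20L2, an exonuclease of ribosome biogenesis, held one of 15.3 with a deletion summit 554 bp and a WT summit 671 bp away. The rescue summit at CDC37 and that at ISG20L2 were therefore members by less than 100 bp.

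Farther from other summits were INTS6L, related to an Integrator subunit (13.6, with deletion and WT summits 24320 and 24147 bp away), and NF1, a brake on RAS (10.7, with deletion and WT summits 70493 and 86748 bp away). The nearest deletion and WT summits were 47860 and 47761 bp from the member next to KDM4C, a histone demethylase (10.9), and 15260 and 15502 bp from that next to HS2ST1, a heparan sulfate sulfotransferase (10.9). WSCD2 held one of 9.77 with deletion and WT summits 66443 and 64471 bp away. NTNG1, an axon guidance protein, held the most remote of the 25, a member of 9.62 with the nearest deletion summit 387430 bp and the nearest WT summit 608126 bp away.

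The other genes of the 25 were STAC3, a muscle adaptor protein (12.8), PRPH, the intermediate filament peripherin (11.7), and ACKR2, a chemokine scavenger (10.3), which held a member each. PTPN20, a tyrosine phosphatase (13.7), SMIM28 (12.3), TSPEAR (10.6), HAPSTR2 (10.1) and MASP1, a protease of the complement system (9.70), lay within 50 kb of one. The members with no protein-coding gene within 50 kb had values from 9.45 to 51.6. One of them, on chromosome 1 at 143254301 (14.2), lay 3 bp from a deletion IgG summit and 8 bp from a WT IgG summit.

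Within 1000 bp of an IgG summit of any genotype lay 3 of the 1739 members and 29 of the other 19071 rescue summits. The 3 were the member in ORC2, that on chromosome 1 and one on chromosome 16 at 34582240 (8.70), 6 bp from a rescue IgG summit. The authors' deposited lists of changed regions, which carry coordinates only, held 0 members in the 9603 regions of their up list and 1 in the 364 of their down list. The rule leaves out rescue summits near a deletion or WT summit, so nothing is read from these counts. The 1 member was 5112 bp outside CDKAL1 (chromosome 6, 20529345; value 4.20), 34903 bp from a deletion summit and 690 bp from a WT summit.

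A protein-coding gene held or lay within 50 kb of 1437 members, 1325 genes in all. For 104 genes there were 2 or more members and for 6 genes 3 or more. The genes below were picked because they had the most members. A high share of members and few deletion or WT summits there follow from that choice. Over the whole rescue list the share of members was 8.36%. CTNNA2, a neuronal catenin and a very long gene, held 4 of its 6 rescue summits as members, with values of 4.39, 3.11, 2.45 and 2.45; the deletion list had 3 summits there and the WT list 0.

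INTS6L had 3 members of 6 rescue summits, inside it (13.6) and 42817 bp (2.08) and 30457 bp (1.32) outside it, with 3 deletion summits and 1 WT summit. EIF3H, a subunit of a translation initiation factor, had 3 of 3 (4.77, 3.48 and 1.38), with 1 deletion summit and 0 WT summits. SMAD5, a transducer of BMP signals, also had 3 of 3 (3.51, 2.85 and 2.12), with 0 deletion and 0 WT summits. The SMAD5 member of 2.85 lay 12097 bp outside the gene. ANXA2R, the annexin A2 receptor, had 3 of 8 (4.24, 4.07 and 3.32), with 5 deletion and 5 WT summits. The ANXA2R members of 4.24 and 3.32 lay 23617 and 28366 bp outside the gene. That of 4.07 lay inside it, 834 bp from a deletion summit and 542 bp from a WT summit. HS2ST1 and HAPSTR2 had 2 each.

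Inside a protein-coding gene lay 51.5% of the members (49.1 to 53.8), against 47.9% of the other rescue summits (47.2 to 48.6). Weighted to the value classes of the members, the share of the other rescue summits was 51.2%, so that summits of like value differed little. Within 1 kb of an end of any gene lay 18.3% of the members (16.6 to 20.2) and 17.7% of the other rescue summits. It was 19.6% of deletion-only summits and 25.1% of WT-only summits (23 to 27.3). More than 50 kb from any protein-coding gene lay 17.4% of the members (15.7 to 19.2), against 14.6% of other rescue summits of like value, 17.1% of deletion-only and 21.5% of WT-only summits.

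On X the members were more frequent than on any other chromosome, with 83 of 447 rescue summits, 18.6% (15.2 to 22.4). On chromosomes 1 to 22 the share was 8.13% (7.76 to 8.52), with the lowest, 5.86% (4.30 to 7.93), on chromosome 14 and the highest, 10.1% (7.35 to 13.6), on chromosome 18. Rescue summits on X were weak as well, with a median value of 5.27 against 6.62 on chromosomes 1 to 22. Summits with their values would have had a share of 10.6% by the rates of the whole list, below the lower limit on X. WT-only summits also made up more of the WT list on X, 14.3%, than on chromosomes 1 to 22, 8.08%, whereas deletion-only summits were 28.2% of the deletion list on X and 30.6% on chromosomes 1 to 22.

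**Figure D4:**
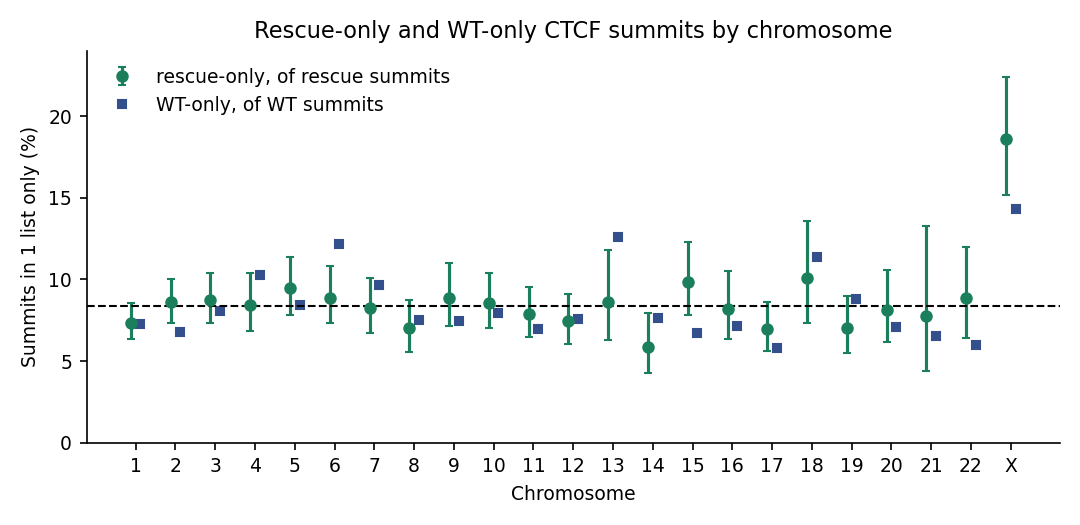
Share of rescue-only summits among the rescue summits of each chromosome (circles, with 95% Wilson intervals) and of WT-only summits among its WT summits (squares), in %; the dashed line is the 8.36% of the whole rescue list. X stands at 18.6% for rescue-only summits, and the other chromosomes between 5.86% and 10.1%.

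The higher share on X was most marked in its last part. From 130 Mb to the end of the chromosome 49 of 157 rescue summits were members, 31.2% (24.5 to 38.8), where summits of like value had 9.98% over the list. Below 130 Mb 34 of 290 were members, 11.7% (8.51 to 15.9), where summits of like value had 10.9%. From 130 Mb on, the lists held 157 rescue, 122 deletion and 73 WT summits, so that rescue over WT was 2.15 and deletion over WT 1.67. Below 130 Mb, rescue over WT was 0.838 and deletion over WT 1.41; on chromosomes 1 to 22 these ratios were 1.09 and 1.64. With lists of equal length there were 135 rescue, 66 deletion and 73 WT summits from 130 Mb on, and 58 of the rescue summits, 43.0%, were rescue-only. At equal lengths the share was 17.6% on X below 130 Mb and 13.4% on chromosomes 1 to 22. In this stretch deletion-only summits made up 15.6% of the deletion summits and WT-only summits 6.85% of the WT summits (5 of 73), against 30.6% and 8.08% on chromosomes 1 to 22. The limit of 130 Mb was taken from these data, and the cause was not tested.

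The 10 highest-valued members from 130 Mb on, named after their values were seen, were led by INTS6L (13.6), HAPSTR2 (10.1 and 7.09) and SAGE1 (9.38). One of 8.83 had no protein-coding gene within 50 kb. The others were at CCDC160 (7.67), IDS, a lysosomal sulfatase (7.58), MOSPD1, a protein of the endoplasmic reticulum (7.25), PNMA3 (6.97) and HS6ST2, a heparan sulfate sulfotransferase (6.74). Apart from those in INTS6L and HS6ST2, these members lay outside the gene named, from 252 bp at MOSPD1 to 48879 bp at HAPSTR2. At SAGE1 the member was 8490 bp from a deletion summit and 182766 bp from a WT summit, and at MOSPD1 these distances were 49901 and 49910 bp.

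In bins of 10 Mb with at least 20 rescue summits, 277 in number, the median rescue-only share was 8.33%. The highest shares were 29.7% from 150 Mb of X (19 of 64 summits), 29.5% from 130 Mb of X (23 of 78) and 26.8% from 160 Mb of chromosome 6 (15 of 56). The next was 25%, from 30 Mb of chromosome 18 (8 of 32), where rescue over WT was 0.780. Rescue over WT was 1.94, 2.29 and 2.00 in the first 3 of these bins, and was 2 or more in 2 of the 277.

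From 160 Mb to the end of chromosome 6, 16 of 57 rescue summits were members, 28.1% (18.1 to 40.8), and the lists held 57 rescue, 72 deletion and 28 WT summits. On chromosome 6 below 160 Mb the share was 7.79%, and the first 30 Mb, with 98 rescue, 189 deletion and 193 WT summits, had 8 members. The members near the end of the chromosome included, named after their values were seen, one 1408 bp outside CEP43, a centrosomal protein (7.44), and 1 inside QKI, an RNA-binding protein (3.58). The rescue-only shares of the X and chromosome 6 segments, 31.2% and 28.1%, had overlapping intervals. Rescue summits of like value had 12.6% over the list in the case of chromosome 6. Its deletion-only share was 40.3% (29 of 72 summits) and its WT-only share 21.4% (6 of 28). On chromosomes 1 to 22 these shares were 30.6% and 8.08%. The counts of the segment are small and these shares have no interval here, so no contrast with X from 130 Mb is read from them.

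**Figure D5:**
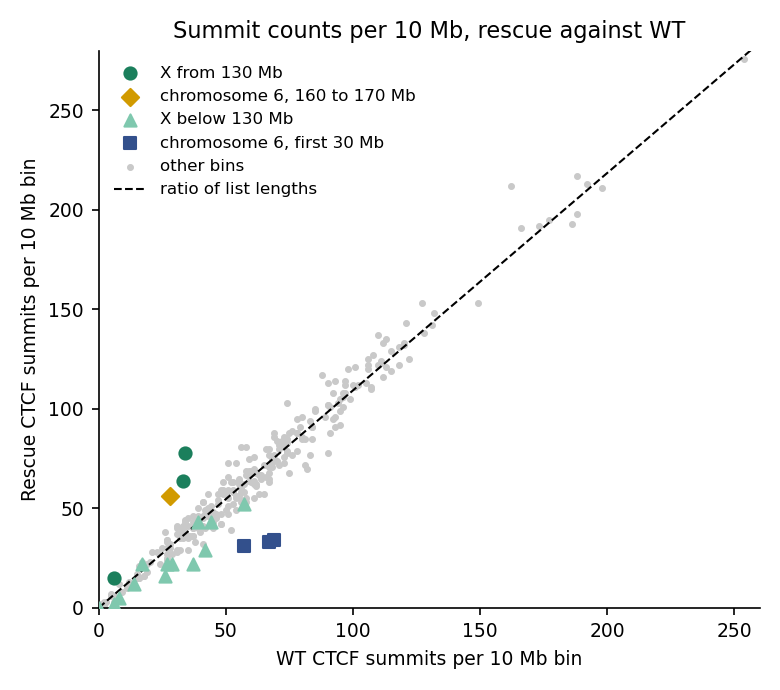
Number of rescue CTCF summits against WT CTCF summits in each 10 Mb bin of chromosomes 1 to 22 and X; the dashed line is the ratio of the list lengths. The X bins from 130 Mb on and the bin from 160 Mb of chromosome 6 lie above the line, with 78, 64 and 56 rescue summits in the fullest, and the first 30 Mb of chromosome 6 lie below it.

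By gene group, rescue-only summits were read against the 8.36% of the whole list. For 23 of the 24 lists the interval of the share held this background. The exception was the very long genes and genes of fragile sites, regions that break easily when replication is slowed. Of their 100 rescue summits 19 were members, 19% (12.5 to 27.8). Rescue summits of like value had 11.5%, just below the lower limit. The intervals were not adjusted for the 24 lists, so 1 such exception could arise by chance. Several members lay at the same gene and may not be independent, so the interval may also be too narrow. The list's members lay at 12 of the 32 genes that had a rescue summit. They were led by NRXN3, a synaptic adhesion protein (7.26), and included AUTS2, a neurodevelopmental regulator (6.22, 35684 bp outside it). CTNNA2 had 4 and TENM2, a synaptic teneurin, 2. FHIT, WWOX and MACROD2, which lie at well known fragile sites, had 1, 5 and 1 rescue summits and 0 members.

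Of replication licensing and firing genes, the group of ORC2, 2 of 16 rescue summits were members, that in ORC2 and one in MCM10, a helicase activator (2.95). Cohesin, condensin and architecture genes had 1 of 36, in NIPBL, the cohesin loader (2.12). Polycomb, heterochromatin and DNA methylation genes had 3 of 46, in JARID2 (4.25), MBD2 (1.64) and RNF2 (1.40). Imprinted genes had 0 of 31, which allows a share of up to 9.68% (3 counts of the total), histone genes 0 of 16, which allows up to 18.8%, and clustered protocadherins 0 of 4, too few to read. HOX genes had 3 of 21: in HOXC5 (6.07), where a deletion summit was 672 bp and a WT summit 639 bp away, next to HOXB9 (2.70) and in HOXB6 (2.44).

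DNA damage response and repair genes had 4 of 32, led by FANCA, of the Fanconi anaemia core complex (3.76, 310 bp outside), XRCC5, a Ku subunit (3.16), and ERCC1, a repair nuclease subunit (2.18). Cell cycle genes had 4 of 28, with MAD2L1 (3.11), CCND3 (2.62) and FZR1 (2.55) first. The p53 pathway, whose central gene these cells lack, had 1 of 36, next to RRM2B (6.81). RAS, MAPK and PI3K genes had 7 of 49, 14.3% (7.10 to 26.7), among them NF1 (10.7) and MAPK14 (2.90). WNT pathway genes had 6 of 62, among them 2885 bp outside WNT10A (4.92), in GSK3B (3.73) and 9951 bp outside WNT6 (3.27). TGF-beta and BMP genes had 5 of 42, with SKIL (4.52) and SMAD5 first.

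Intestinal epithelium genes, of the tissue the line comes from, had 4 of 38. The first were in KRT8 (5.54), in CDH17 (4.10) and 45893 bp outside SMOC2 (2.80). For genes of other lineages the intervals held the background too. Synaptic and neuronal genes had 10 of 72, 13.9% (7.72 to 23.7), led by NRXN3 and SHANK2 (6.97). Haematopoietic genes had 2 of 21, in KIT (7.30) and CD34 (4.46), and mesenchymal genes and cadherins 1 of 37, next to TWIST1 (2.12). Developmental transcription factors had 6 of 89, led by members outside MSX1 (8.60, 16932 bp), PAX2 (3.34, 38013 bp) and SOX5 (2.70, 32822 bp). Nuclear receptors had 2 of 57, in NR6A1 (5.45) and 47772 bp outside THRB (1.98). Voltage-gated calcium channels had 2 of 43, in CACNA1G (9.18) and CACNA1A (1.98).

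Among large families, zinc finger (ZNF) genes had 19 of 197, 9.64% (6.26 to 14.6). The first were 15340 bp outside ZNF697 (8.91), in ZNF292 (7.38) and 11646 bp outside ZNF630 (5.21). Ribosomal protein genes had 6 of 57, with members 3579 bp outside RPL3 (3.94) and 2266 bp outside RPL19 (3.21) first. Olfactory receptors had 3 of 63, 44991 bp outside OR6J1 (3.21), 6924 bp outside OR6B3 (2.70) and in OR56A1 (2.45).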

How the data were processed

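The deposited summit lists, 1 base per peak, give as each summit's value the −log10 of the q of the authors' peak caller. The build was hg38 and the tools MACS2 (no version given), SAMtools 1.12, Bowtie2 2.2.9 and FastQC 0.11.5, per the submitters' processing notes. Neither calling settings nor any use of IgG as a control is given in the sources used here. Each CTCF list was taken as the pool of its 2 libraries. The deposited up and down lists hold other values, namely region starts and ends.

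Summits on chromosomes 1 to 22 and X were matched by distance, 500 bp. A summit's gene was the protein-coding gene that holds it, else the nearest gene end within 50 kb, from a RefSeq table (GRCh38.p14, the assembly of hg38) without strand or exons. Shares have 95% Wilson intervals, and the upper limits printed for counts of 0 are 3 counts of the total instead. No test was run, because the rule uses the lists' presence calls and each genotype has 1 list. Comparisons at like value weight 10 classes of the rescue value. Promoter windows were scanned with the CTCF consensus; sequences are RefSeq's.

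The rule for named genes took those of the 25 highest-valued members, the 8 genes with most members, the 3 highest-valued members of each gene list, and the 10 highest-valued members in a promoter window; some of these are not reported here. Other genes, on X and chromosome 6, at promoters with a motif match, in the down list and some at fragile sites, were named after their values were seen. Members and gene lists were chosen with earlier results of these data known. Matching and the motif scan were tested on simulated data. For the scan, the consensus was planted in random sequences of A and T only, so false matches in GC-rich windows could not be seen. Alternatives were other distances, value minimums, equal list lengths, omission of summits near IgG, gene windows, thinning and mismatches. The tools were SciPy 1.17.1, pandas 2.3.3, NumPy 2.4.6, matplotlib 3.10.9 and Python 3.11.15.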

Additional observations from a re-analysis of the deposited data

Results flagged for a closer look

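Signal without the CTCF antibody lay beside the member in ORC2. The rescue IgG list, of 1 library, had a summit at 200956416 on chromosome 2 with a value of 11.1, 584 bp from the rescue-only CTCF summit, and a second at 200958139 with 9.57. The deletion IgG list had summits of 60.7 and 16.3 there, at 200956365 and 200958215, and the WT IgG list had none on that gene. The values of different lists are not comparable in size.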

How the results depend on the processing

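The number of rescue-only summits was 5793 at 100 bp, 2409 at 250 bp and 1632 at 1000 bp. It was 894 with a −log10 q of at least 5 in every list, 477 with at least 10, 2608 at equal list lengths and 1736 without rescue summits within 1 kb of an IgG summit. Their share of the rescue list was 27.8% at 100 bp, 11.6% at 250 bp, 7.84% at 1000 bp, 6.51% with a value of at least 5 and 13.7% at equal list lengths. The share inside a protein-coding gene was 47.3% with a value of at least 5. Each peak had 1 summit, so a setting with 1 summit per peak was not run.

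The rescue-only minus deletion-only share was -22.2 percentage points at full length and 1.10 at equal list lengths, a change of sign. Against WT-only summits it was 0.144 points at full length and -2.51 at equal lengths. The excess on X over chromosomes 1 to 22 was 10.4 points (7.08 to 14.3), 9.14 with 1 summit per 100 kb and 8.17 within value classes. With a value of at least 5 it was 14.9, outside that interval, and this setting was not planned for X. The share of rescue-only windows with the CTCF consensus minus that of windows with other rescue summits was -20.1 points, with -5.87 points for exact matches, -26.4 for up to 2 mismatches, and -12.6 against other rescue summits of value under 5; the mismatch settings and the value limit were chosen after seeing the data. Near gene ends the rescue-only minus other rescue share was 0.663 points (-1.17 to 2.63) and stayed within this interval under 5 settings; counting only protein-coding genes' ends gave 1.62 points (0.0565 to 3.33), an interval that leaves out 0. Of 25 gene list values under other settings, 1 moved out of its interval, developmental transcription factors, with 2.00% within 10 kb.

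No paired analysis was possible because the lists carry no replicate numbers, and leaving out a replicate was not possible either. The depth of the libraries is unknown, and 107 members had a deletion or WT summit within 1000 bp.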
